A study of Mus musculus with 30 samples.

Results

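The genes described here are the collagens of a mouse reprogramming study, that is, every gene whose symbol is Col, a number, the letter a and a number. The array held 44 such genes on 50 probes, among 19084 named genes on 26423 probes. They were split into 11 fibrillar collagens, 6 chains of the basement membrane collagen IV (Col4), 6 chains of the microfibrillar collagen VI (Col6) and 21 others. The split followed the proteins' known assembly and used no measured value.

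Collagen chains join in threes into a triple helix. Fibrillar collagens are secreted as procollagens, trimmed and packed into fibrils, collagen IV forms the sheet-like network under epithelia and around vessels, and collagen VI forms beaded filaments close to the cell. Fibroblasts are the main source of collagens I, III, V and VI in connective tissue, while parietal endoderm and endothelium are rich in collagen IV.

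Total RNA from 30 samples was hybridised in 1 colour to the Phalanx Mouse OneArray v2. Somatic cells (7 samples) were 4 cultures of mouse embryonic fibroblasts (MEF1, MEF2, MEF3 and WT MEF, the last labelled wild type), neonatal fibroblasts (MNF), adult lung fibroblasts (MAF) and adipose-derived stem cells (ADSC), all without chemical treatment. Chemically induced pluripotent stem cells (CiPSC, 11 samples) had received small-molecule mixtures that the labels give as letter codes: VC6TFMP+Z (CiPS34), VC6TFS+Z (MNF CiPS7), VC6F+Z (CiPS50), VC6TFDBS+Z (CiPS21), VCT6FMDBR+Z (MNF CiPS1), VC6TFDM+Z (MAF CiPS3), FC6+Z (CiPS45), VC6TFMPS+Z (ADSC CiPS2, CiPS WT1 and CiPS WT2) and VC6TF+Z (the line CiPSCs). OSKM iPSC (2 samples) had no chemical treatment on their labels, SKM-FSK iPSC (2 samples) are labelled with the treatment F, and embryonic stem cells (ESC, 5 samples) were the line R1 in 4 samples and TT2 in ESC2. Cells under treatment were taken on day 12 (code VC6TF), day 20 and day 32 (code VC6TF+Z), 1 sample each. The ESC, iPSC and CiPSC lines were kept on feeder MEFs arrested with mitomycin C, so their RNA could include feeder RNA, while the fibroblasts and ADSC were grown without feeders. By their labels CiPS34, CiPS50, CiPS21, CiPS45, CiPSCs and the OSKM and SKM-FSK iPSC came from mouse embryonic fibroblasts (MEF). CiPS WT1 and CiPS WT2 came from wild-type MEF, MNF CiPS7 and MNF CiPS1 from neonatal fibroblasts and MAF CiPS3 from adult lung fibroblasts. The label of ADSC CiPS2 names adipose-derived cells in its title and adult lung fibroblasts as its source.

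The samples lie in 5 sets of 7, 9, 4, 4 and 6 samples that the authors normalized separately, so levels are compared within a set, and a range given across sets mixes their scales. Set 1 holds MEF1, 4 CiPSC lines, OSKM iPS1 and ESC1, set 2 holds MNF, MAF, ADSC, 4 CiPSC lines, OSKM iPS2 and ESC2, set 3 holds WT MEF, CiPS WT1, CiPS WT2 and ESC3, set 4 holds MEF2, both SKM-FSK lines and ESC4, and set 5 holds MEF3, days 12, 20 and 32, CiPSCs and ESC5. Every deposited column is 1 value per sample although 2 or 3 replicates per sample are stated, so the tests measure the spread between samples of a group across lines and sources, and the spread between arrays of 1 sample is not known. The number of collagens measured was 24, 25, 30, 41 and 44 in sets 1 to 5, and 22 were measured in all 5. The fibrillar genes Col1a1, Col3a1, Col24a1 and Col27a1 had values in sets 4 and 5 only. Marker sums followed the labels in set 5, though not every marker did: the summed intensity of the pluripotency markers was 97536 in CiPSCs against 1242 in MEF3, and that of the fibroblast markers was 26430 against 121690. Of the fibroblast sums, Vim alone was 23829 in CiPSCs and 39883 in MEF3, and it read 15144 in ESC5. The pluripotency factor Pou5f1, however, read 24.2 in CiPSCs and 61.0 in MEF3, and Sox2 read 41.1 and 28.2, so these 2 probes did not separate the groups there.

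A fibrillar chain (Col1a2) and 2 collagen VI chains (Col6a1 and Col6a3) were among the largest decreases in pluripotent cells. Of the collagens that could be tested, Col9a2 was the only one called higher there. Col18a1 had high readings in most somatic and pluripotent samples and no called difference. The promoters of these 5 members, on which the results turn, are printed here. Each is the 150 bases before the annotated start in RefSeq (GRCm38.p6), 5′ to 3′ on the gene's strand. Capitals mark the CCAAT box (CCAAT) and the GC box (GGGCGG), each on either strand, so that a GC box can read CCGCCC. Col1a2 lies at chr6:4505468-4505617 on the plus strand, Col6a1 at chr10:76726045-76726194 on the minus strand, Col6a3 at chr1:90843972-90844121 on the minus strand, Col18a1 at chr10:77166531-77166680 on the minus strand and Col9a2 at chr4:121039416-121039565 on the plus strand.
Col1a2: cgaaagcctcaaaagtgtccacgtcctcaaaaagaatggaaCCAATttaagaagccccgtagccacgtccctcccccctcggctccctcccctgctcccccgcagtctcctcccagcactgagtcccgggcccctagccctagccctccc
Col6a1: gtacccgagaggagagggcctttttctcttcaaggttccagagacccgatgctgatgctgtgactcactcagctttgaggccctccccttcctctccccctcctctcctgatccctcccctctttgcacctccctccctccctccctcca
Col6a3: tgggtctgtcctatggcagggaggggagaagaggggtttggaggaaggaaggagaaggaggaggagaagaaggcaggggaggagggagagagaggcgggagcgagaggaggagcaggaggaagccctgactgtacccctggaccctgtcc
Col18a1: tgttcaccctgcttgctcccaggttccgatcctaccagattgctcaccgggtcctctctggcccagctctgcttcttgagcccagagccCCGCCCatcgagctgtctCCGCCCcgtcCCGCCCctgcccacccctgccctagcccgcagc
Col9a2: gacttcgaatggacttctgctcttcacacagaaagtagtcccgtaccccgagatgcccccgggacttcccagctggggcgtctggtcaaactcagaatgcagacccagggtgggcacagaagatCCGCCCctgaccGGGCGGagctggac
In Col1a2 a CCAAT box began 109 bases before the start. Col6a1 and Col6a3 held neither motif in these 150 bases, Col18a1 held GC boxes that began 61, 43 and 33 bases before the start, and Col9a2 held them at 26 and 14 bases. Of the 44 collagens, 35 had a promoter entry. In the 250 bases before the start, 13 of these 35 (37.1%) held a CCAAT box against 37.5% of all genes, and 21 of 35 (60.0%) held a GC box against 35.4%. TATAAA, searched likewise on both strands, was in 5 of 35 (14.3%), namely Col3a1, Col10a1, Col11a2, Col13a1 and Col17a1, against 14.3% of all genes. The 3 motifs share no overlapping letters in the printed windows. A match describes letters only, and none of the 3 motifs was tested for a relation to the expression values.

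The first comparison asked how collagen expression differed between CiPSC and somatic samples. The somatic samples of a set were not always a line's own source. CiPS45 came from MEF but lies in set 2, which has no MEF, and MNF CiPS7 came from neonatal fibroblasts but lies beside MEF1. Collagens were lower in CiPSC across all 4 classes. Of 32 collagens that could be tested, 18 fell and 1 rose at an adjusted p under 0.05 and at least 2-fold, and 13 were not called. Over all genes tested, 13.3% fell and 14.9% rose under the same rule. The median difference over the 32 collagens was -1.70 on the log2 scale, against -0.11 over all genes. Here and in what follows, differences are log2 of CiPSC over somatic ± SE from limma with a term for the set, over 11 CiPSC and 7 somatic samples where all sets had the gene, and adjusted p is Benjamini-Hochberg over all genes. In 15 of the 18 that fell, every CiPSC sample read below every somatic sample of its set, and the exceptions were Col11a1, Col8a2 and Col9a1. A call already favours such genes, and no count over all genes stands beside this one, so it describes these members only. The RNA came from whole cultures, so fewer cells of a type and less RNA per cell cannot be told apart. Fibroblast markers moved with them: 10 of 12 tested fell, as did 3 of 3 smooth muscle, 4 of 7 extraembryonic endoderm, 2 of 3 macrophage and 2 of 3 adipose markers. Endothelial markers did not: of 5 tested, 1 fell, 1 rose and 3 were not called. The 1 cartilage marker tested was not called. The summed fibroblast markers stood at 0.377% to 1.25% of the somatic level in the CiPSC of set 1 (2 of 14 markers measured), 2.67% to 8.56% in set 2 (7 measured), 28.0% and 32.7% in set 3 (12 measured) and 21.7% in set 5 (14 measured). Vim, without values in sets 1 and 2, made up 29878 of 54234 in CiPS WT1, 34643 of 63406 in CiPS WT2 and 23829 of 26430 in CiPSCs. These percentages therefore do not compare between sets. The part of these cell types in the result was not tested.

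**Figure D1:**
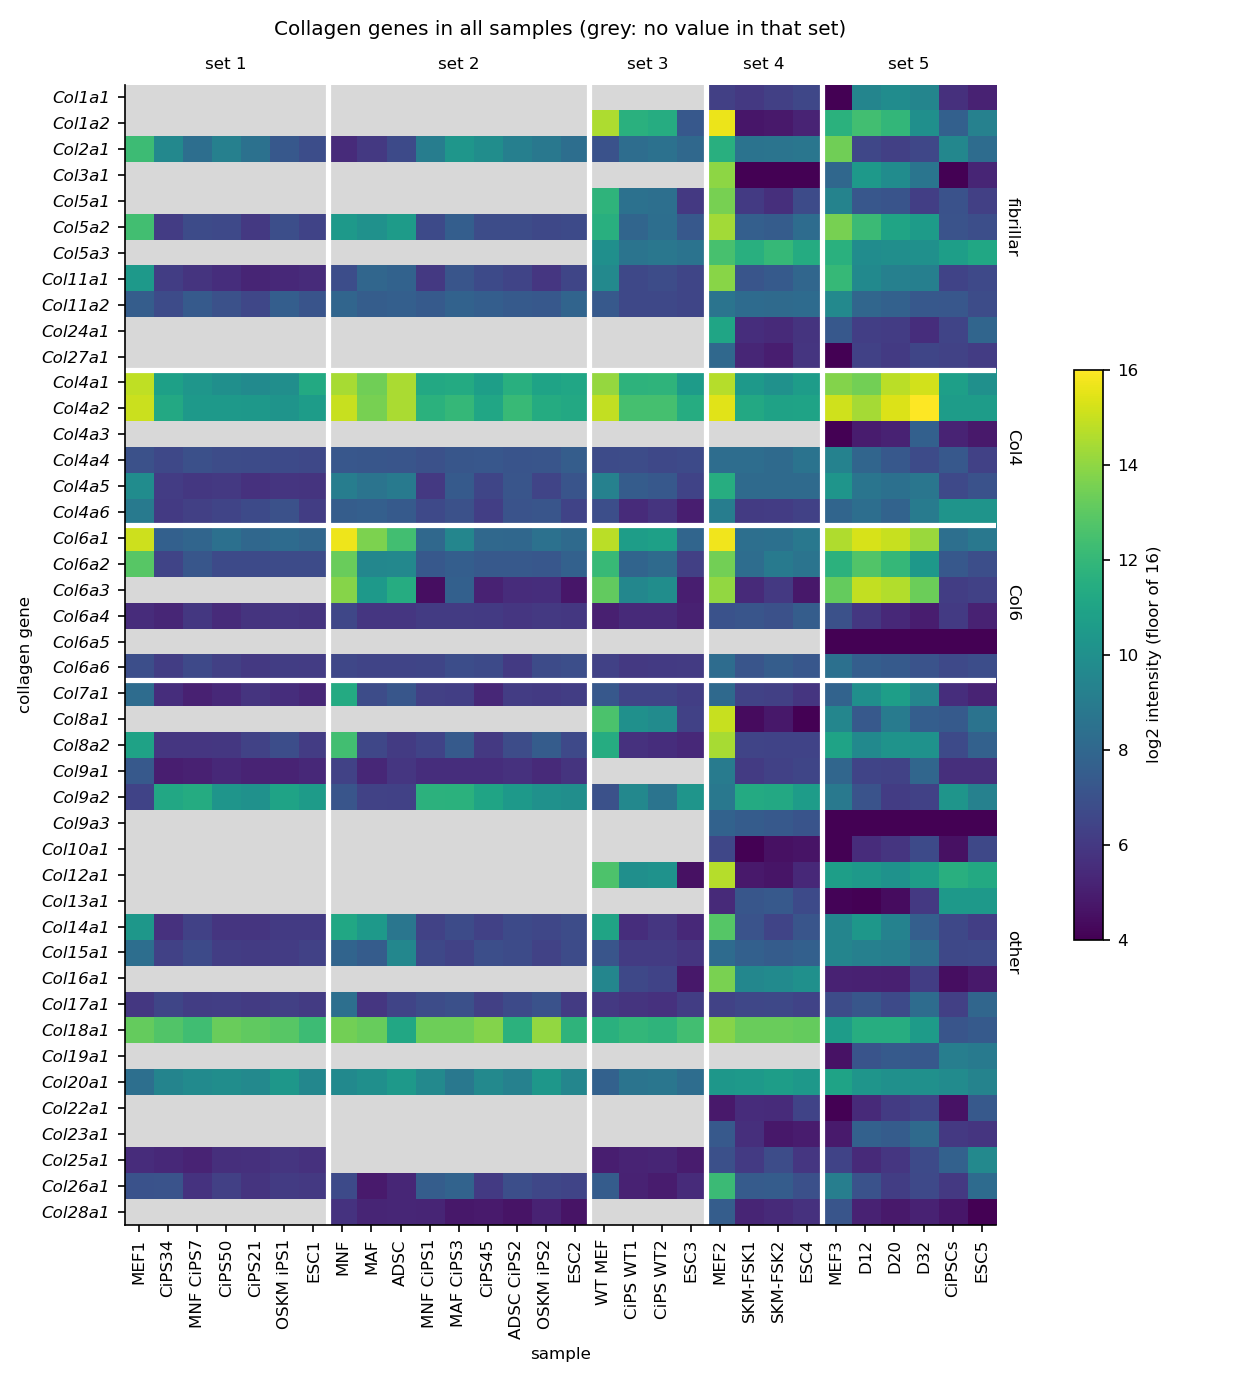
Heat map of log2 intensity (floor of 16) of the 44 collagens (rows, by class) in the 30 samples (columns, by set and group), with grey cells where a gene had no value in a set. In each set with values the somatic columns are brighter than the CiPSC, iPSC and ESC columns for Col5a2, Col4a1, Col4a2 and Col6a1 to Col6a3, and Col9a2 shows the opposite pattern.

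Within sets the same direction appeared in different shares of the members. In set 1, 14 of 24 collagens were at least 2-fold lower in the mean of the CiPSC lines than in MEF1 (15.3% of all genes), as were 11 of 25 in set 2 (16.7%), 19 of 30 in set 3 (16.1%) and 25 of 44 in set 5 (30.2%). The median difference was -2.36, -0.80, -2.10 and -2.06 in these sets. Set 2, with the smallest shift, is the set whose somatic samples were not embryonic fibroblasts, and the only one with more than 1 of them. These differed among themselves: the summed collagen intensity was 173% of their mean in MNF, 58.2% in MAF and 68.9% in ADSC. As a percentage of the set's somatic level, summed collagen intensity was 10.0% to 12.4% in the 4 lines beside MEF1, 16.9% to 27.7% in the 4 lines of set 2, 16.8% in CiPS WT1, 16.5% in CiPS WT2 and 12.8% in CiPSCs. These sums are dominated by the brightest probes.

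Among fibrillar collagens, which form the load-bearing fibrils, 5 of 7 tested fell. Col5a2, a chain of collagen V that nucleates fibrils, read 5365 in MEF1 against 70.0, 109, 99.5 and 63.2 in the 4 CiPSC lines of set 1. In set 2 it read 1391, 1091 and 1551 in MNF, MAF and ADSC against 104, 192, 109 and 109.8 in MNF CiPS1, MAF CiPS3, CiPS45 and ADSC CiPS2. The somatic and CiPSC values did not overlap in any set, and Col5a2 fell by 4.52 ± 0.34 (adjusted p = 7.19e-10). Col1a2, a chain of collagen I, the main collagen of bone and skin, was measured in sets 3 to 5. It read 23851 in WT MEF, 3093 and 2799 in CiPS WT1 and CiPS WT2 and 159.6 in ESC3. In set 5 it read 3196 in MEF3, 206 in CiPSCs and 619.8 in ESC5. All CiPSC values lay below those of MEFs of the same set, but the lines differed widely, and the difference of -4.09 ± 1.34 (adjusted p = 0.035) had the largest SE of the 18. It was no longer called without CiPS WT2, when it was -4.39 with an adjusted p of 0.0518.

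Col5a1, the other main collagen V chain, was measured in sets 3 to 5 and fell by 3.21 ± 0.64 (adjusted p = 0.00279). It read 3558 in WT MEF, 354 and 338 in the 2 lines and 64.6 in ESC3, and in set 5 651 in MEF3, 130.1 in CiPSCs and 78.0 in ESC5. Col11a1, a fibril-nucleating chain of cartilage and of many fibroblasts, fell by 2.98 ± 0.49 (adjusted p = 3.94e-05), with 113, 815 and 14824 as the lowest, median and highest of 7 somatic samples and 38.1, 84.0 and 142 of 11 CiPSC. Col5a3 fell by 1.12 ± 0.36 (adjusted p = 0.0325). Col11a2 differed by -0.69 ± 0.25 (adjusted p = 0.0294), past the p threshold but under 2-fold.

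Col2a1, the main fibrillar collagen of cartilage, was not called, at 0.58 ± 0.78 (adjusted p = 0.569), and the somatic samples themselves split. It read 4863 in MEF1, 3086 in MEF2 and 10625 in MEF3. In WT MEF, MNF, MAF and ADSC it read 131, 44.8, 64.5 and 103. CiPSC lines lay between these levels, with 309, 571 and 1267 as their lowest, median and highest value. Thus 3 of 4 MEF cultures were high, and all 11 CiPSC samples were above the low somatic samples and below the high ones. Aggrecan (Acan), the cartilage proteoglycan, read 589 in MEF3 and 106 in MEF2, against 19.5, 56.4, 28.9 and 31.1 in WT MEF, MNF, MAF and ADSC. These values span sets. Within set 5 MEF3 was above CiPSCs (99.5) and ESC5 (97.9) for Acan. Within set 4 MEF2 was below SKM-FSK1 (121), SKM-FSK2 (116) and ESC4 (162). Other cartilage markers did not all follow Col2a1 either: the cartilage matrix gene Comp read 372 in MEF2 but 1.5 in MEF3, and matrilin-1 (Matn1) read 30.1 and 12.7. The cartilage regulator Sox9 read 1105 in MEF2 and 78.2 in MEF3. The part of cartilage-forming cells in the high Col2a1 of some MEF cultures was not tested.

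The 4 fibrillar genes without a test had values in sets 4 and 5. Col3a1, which forms thin fibrils with collagen I, read 15938 in MEF2 against 7.92, 6.17 and 14.0 in SKM-FSK1, SKM-FSK2 and ESC4, and 258 in MEF3 against 5.58 in CiPSCs and 37.8 in ESC5. Fibroblast and pluripotent samples did not overlap within either set for this gene. The Col1a1 probe, for the main chain of collagen I, did not separate them in the same way: it read 76.2 in MEF2, 63.2 and 77.8 in the SKM-FSK lines, 93.8 in ESC4 and 9.92 in MEF3. Its values were thus at the low end of the scale in MEF cultures whose Col1a2 probe read 51093 and 3196, and Col1a1 supports no statement on collagen I here.

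Of the basement membrane chains, 3 of 5 tested fell, and these were the broadly expressed Col4a1 and Col4a2 together with Col4a5. Col4a1 and Col4a2, whose products assemble into the common collagen IV trimer, lie head to head on chromosome 8, and their annotated transcripts overlap by 22 bases at the starts. Col4a2 read 33412 in MEF1 against 2440.1, 1411, 1393 and 1334 in the CiPSC of set 1, 32855, 12060.0 and 23025 in MNF, MAF and ADSC against 3271, 4097, 2166 and 4298 in the CiPSC of set 2, and 30856 in WT MEF against 5625 and 5594 in set 3. Somatic and CiPSC values did not overlap. Col4a1 followed closely, with 29714 in MEF1 against 1787, 1273, 1023 and 868 in set 1 and 17609 in WT MEF against 3463 and 3581 in set 3. The fitted differences were -3.29 ± 0.28 for Col4a2 (adjusted p = 4.29e-09) and -3.25 ± 0.28 for Col4a1 (adjusted p = 5.79e-09), less than the SE of either apart.

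Of the X-linked neighbours Col4a5 and Col4a6, the first was called and the second was not, and the difference between them was not tested. Col4a5, a chain of the kidney and lung basement membrane, fell by 2.66 ± 0.26 (adjusted p = 3.91e-08), from 396, 626 and 2843 as the lowest, median and highest somatic value to 52.1, 90.2 and 183 in CiPSC. Col4a6 differed by -0.91 ± 0.39 (adjusted p = 0.0676) and was not called. It was lower in the CiPSC of sets 1, 2 and 3, by means of -2.55, -0.80 and -1.23, but higher in set 5, and it was called lower without set 5. Its probe read 1196 in CiPSCs and 1186 in ESC5, where the other Col4a6 probe read 26.0 and 22.6, so the 2 probes disagree in set 5. Col4a4, a chain of the mature glomerular membrane, differed by -0.32 ± 0.25 and was not called, and its partner Col4a3 had values in set 5 only.

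Collagen VI held the 2 largest decreases of the collagens tested, in Col6a3 and Col6a1. Its 3 classical chains fell and the alternative chains Col6a4 and Col6a6, the remaining 2 of 5 tested, were not called. Col6a1 read 34614 in MEF1 against 206, 244, 344 and 258 in the CiPSC of set 1. In set 2 it read 52469.7, 12881 and 5270.1 in MNF, MAF and ADSC against 265, 729.7, 265 and 261 in MNF CiPS1, MAF CiPS3, CiPS45 and ADSC CiPS2. In set 3 it read 27471 in WT MEF against 1649 and 1792. Every CiPSC sample was below every somatic sample of its set. Col6a1 fell by 5.67 ± 0.41 (adjusted p = 4.21e-10). Col6a2, its neighbour on chromosome 10, fell by 4.24 ± 0.44 (adjusted p = 8.25e-08), from 764, 4324 and 11034 in the 7 somatic samples (lowest, median and highest) to 89.3, 159 and 288 in the 11 CiPSC. Col6a3, the longest chain and the source of the fragment endotrophin, fell by 5.75 ± 0.69 (adjusted p = 4.23e-06). It read 8982 in WT MEF, 740.2 and 950.5 in CiPS WT1 and CiPS WT2, 9127 in MEF3 and 73.3 in CiPSCs. Col6a4 differed by -0.07 ± 0.20 and Col6a6 by -0.44 ± 0.21.

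**Figure D2:**
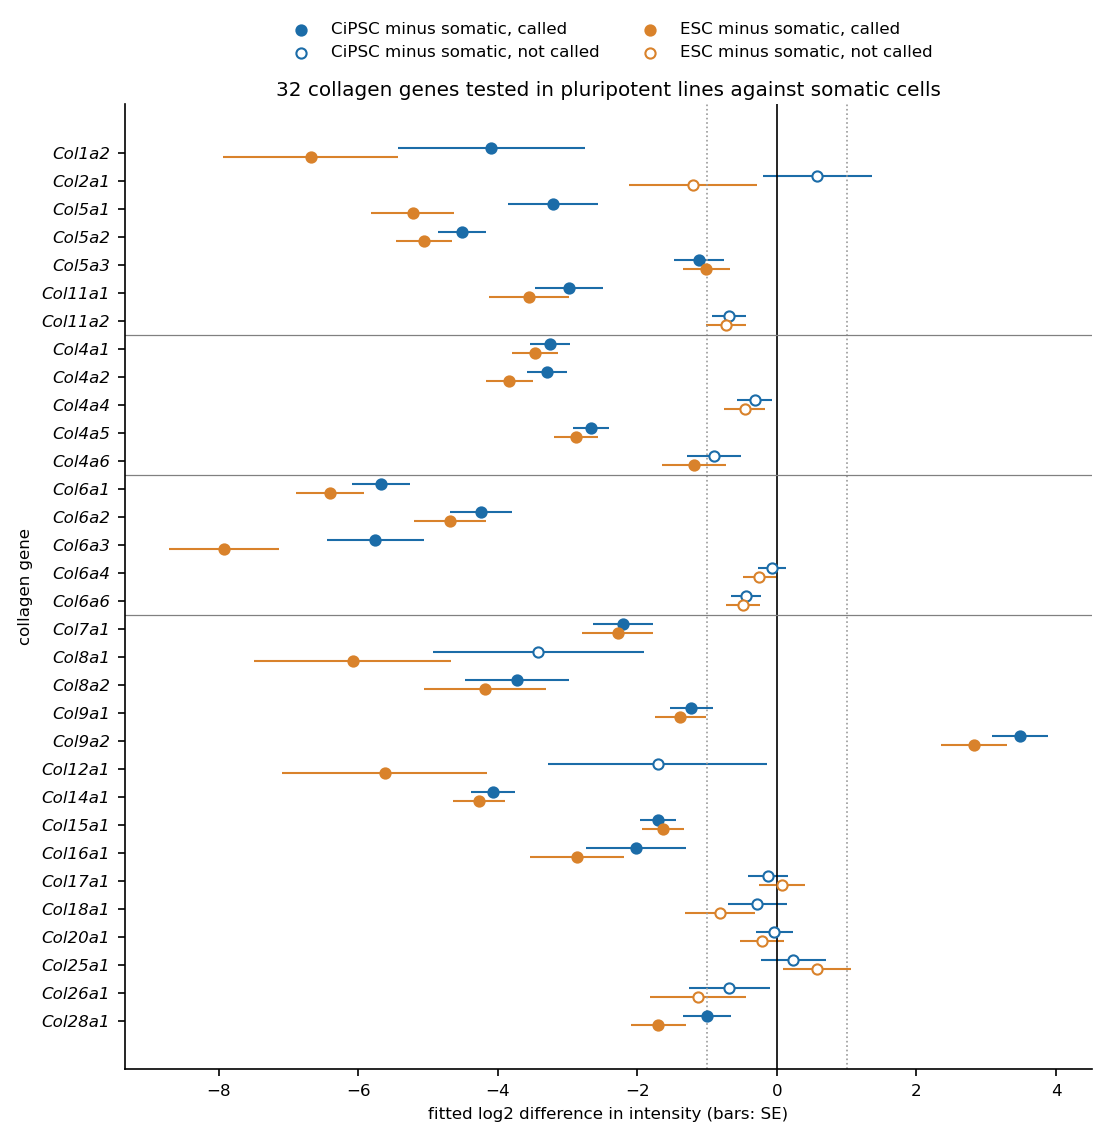
Fitted log2 differences from somatic samples (horizontal axis, points with SE bars) for the 32 collagens tested (vertical axis, by class) in CiPSC (blue) and ESC (orange), with filled points for called differences, open points for others and dotted lines at 2-fold. Col6a3 and Col6a1 lie farthest left in CiPSC at -5.75 and -5.67, and Col9a2 is the only filled point to the right of 0.

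Among the 21 other collagens, 15 could be tested, of which 7 fell and 1 rose. Col14a1, a fibril-associated collagen of tendon and skin, fell by 4.07 ± 0.32 (adjusted p = 1.21e-09), from 417, 1377 and 7211 (lowest, median and highest) in somatic samples to 47.9, 78.8 and 106 in CiPSC. The network-forming Col8a2 fell by 3.73 ± 0.74 (adjusted p = 0.000326). It was already low in some somatic samples, with 5302 in MNF but 93.2 in MAF and 67.7 in ADSC, and CiPSC ranged from 47.3 to 169. Col7a1, which anchors the epidermis to the dermis, fell by 2.21 ± 0.43 (adjusted p = 0.000261) and Col15a1, a basement membrane proteoglycan, fell by 1.70 ± 0.26 (adjusted p = 1.48e-05). Col9a1, a chain of cartilage collagen IX, fell by 1.23 ± 0.31 (adjusted p = 0.00363). Col16a1 and Col28a1 passed narrowly, at -2.02 ± 0.72 (adjusted p = 0.0492) and -1.0 ± 0.34 (adjusted p = 0.0329), and Col16a1 lost the call in 16 of the alternative settings and Col28a1 in 6. Col8a1 and Col12a1 had large differences that did not pass, at -3.42 ± 1.51 (adjusted p = 0.102) and -1.71 ± 1.57 (adjusted p = 0.412). In Col12a1, a collagen of dense connective tissue, set 3 and set 5 went apart: it read 6446 in WT MEF against 1006 and 1109 in its lines, but 1693 in MEF3 against 3069 in CiPSCs.

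Col9a2, another chain of collagen IX, was the exception in direction. It read 85 in MEF1 against 2330.5, 2699, 1223 and 1085 in the CiPSC of set 1, and 141, 83.4 and 79.9 in MNF, MAF and ADSC against 3385, 3219, 2036 and 1409.5 in those of set 2. In set 3 it read 126 in WT MEF against 779.9 and 393, and in set 5 456 in MEF3 against 1224 in CiPSCs. All CiPSC samples were above the somatic samples of their set, and Col9a2 rose by 3.48 ± 0.40 (adjusted p = 3.79e-07). The partner chain Col9a1 fell, as given above, and Col9a3 was under the floor of 16 in set 5.

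Col18a1, a basement membrane collagen that releases endostatin, read high in most samples of both groups. Its lowest, median and highest values were 1590, 9228 and 14342 in somatic samples, 144, 6959 and 14032 in CiPSC and 168, 4856 and 9064 in ESC. The groups overlapped almost entirely, and the difference was -0.28 ± 0.42 (adjusted p = 0.613). The low ends of both pluripotent ranges were the set 5 samples, at 144 in CiPSCs and 168 in ESC5, and no other pluripotent sample was near them. Of the collagens that were not called, Col17a1, Col20a1, Col25a1 and Col26a1 differed by -0.13 ± 0.28, -0.04 ± 0.26, 0.23 ± 0.47 and -0.68 ± 0.58.

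The 12 collagens without this test had values in set 5 alone or in sets 4 and 5, and are described there. Besides Col1a1 and Col3a1 they were Col24a1, Col27a1, Col4a3, Col6a5, Col9a3, Col10a1, Col13a1, Col19a1, Col22a1 and Col23a1. Col24a1, a minor fibrillar chain, read 2123 in MEF2 against 47.0, 43.6 and 55.8 in SKM-FSK1, SKM-FSK2 and ESC4. In set 5 it read 161 in MEF3 against 88.9 in CiPSCs and 239 in ESC5. The other Col24a1 probe was also highest in MEF2 in set 4. In set 5, however, it read lower in MEF3 than in CiPSCs (94.2) and ESC5. The 2 probes thus disagree on MEF3 against CiPSCs. Col27a1, a fibrillar chain of cartilage, read 263 in MEF2 against 38.8, 32.1 and 57.4, while in set 5 MEF3 was lowest at 12.7 against 82.0 in CiPSCs. For both genes the 2 MEF cultures thus stood differently to their pluripotent samples. Col10a1, the collagen of hypertrophic cartilage, read 93.2 in MEF2 and 5.33 in MEF3, and 105 on day 32. Col22a1, a collagen of tissue junctions, read 28.0 in MEF2 and 84.3 in ESC4, and 8.17 in MEF3 and 162 in ESC5. Col9a3 read 216 in MEF2 and 137 in ESC4, and Col6a5 was under the floor of 16 in every sample of set 5.

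The other pluripotent groups were set against the same somatic samples, so their values stand beside those of CiPSC and are no independent repeat. Against somatic cells, 21 of 32 collagens fell in ESC (14.3% of all genes) and 1 rose (15.3%), with a median of -1.99. In OSKM iPSC 10 of 23 fell (10.1%) and 1 rose (12.2%), with a median of -1.26, and in SKM-FSK iPSC 17 of 32 fell (8.09%) and 1 rose (7.53%), with a median of -2.44. The gene that rose was Col9a2 in each, by 2.83 ± 0.47 in ESC (adjusted p = 6.03e-05), 3.29 ± 0.66 in OSKM iPSC (adjusted p = 0.000715) and 2.98 ± 0.83 in SKM-FSK iPSC (adjusted p = 0.0171). The SKM-FSK call was lost without MEF2 (adjusted p = 0.0685), SKM-FSK1 (0.0945) or SKM-FSK2 (0.0847). In 17 of the 21 that fell in ESC, ESC read below every somatic sample of each set, and the exceptions were Col12a1, Col4a6, Col8a2 and Col9a1. This count, too, has none over all genes beside it.

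In ESC, Col6a3, Col1a2 and Col6a1 fell, with -7.93 ± 0.79 for Col6a3 (adjusted p = 6.62e-07), -6.68 ± 1.25 for Col1a2 (adjusted p = 0.00215) and -6.40 ± 0.49 for Col6a1 (adjusted p = 1.47e-09). The basement membrane pair fell too, with -3.46 ± 0.33 for Col4a1 (adjusted p = 3.66e-08) and -3.83 ± 0.33 for Col4a2 (adjusted p = 8.2e-09). Col8a1 and Col12a1, not called in CiPSC, fell here, with -6.08 ± 1.41 (adjusted p = 0.0074) and -5.62 ± 1.46 (adjusted p = 0.0134). Col12a1 lost its ESC call without WT MEF (adjusted p = 0.0635), without ESC3 (0.0735) and without MEF2 or ESC4 (0.0977 each).

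OSKM iPSC, measured in sets 1 and 2 only, had no test for Col1a2, Col5a1 or Col6a3. Col6a1 read 290.2 in OSKM iPS1 beside 34614 in MEF1 and 248 in ESC1, and 359 in OSKM iPS2 beside 286 in ESC2. It fell by 5.71 ± 0.67 (adjusted p = 1.77e-06). Col4a1 and Col4a2 fell as well, with -3.67 ± 0.46 (adjusted p = 4.33e-06) and -3.68 ± 0.46 (adjusted p = 3.88e-06). The SKM-FSK lines shared set 4 with MEF2. There Col1a2 read 51093 in MEF2 against 26.1 and 28.2 in the lines and 36.3 in ESC4, and the fitted difference was -8.99 ± 1.65 (adjusted p = 0.00539). Col6a1 fell by 7.07 ± 0.86 (adjusted p = 9.64e-06) and Col5a1 fell by 6.92 ± 0.79 (adjusted p = 0.000369). This comparison leaned on MEF2: without it 9 collagens were called lower, and 11 without either of the 2 lines.

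A direct comparison asked whether CiPSC and ESC differed in collagen expression. With limma no collagen of 32 was called in either direction (0.0303% of all genes were), and 3 had an unadjusted p under 0.05. The median of the 32 differences was 0.45, against 0.01 over all genes, with no test of the median itself. Line by line against the ESC of the same set, the median over collagens was -0.07, 0.16, 0.07 and -0.07 for the lines of set 1 and 0.01, 0.31, -0.15 and -0.01 for those of set 2. It was 0.32 in CiPS WT1, 0.42 in CiPS WT2 and 0 in CiPSCs. The largest differences were 3.91 ± 1.57 for Col12a1, 2.66 ± 1.51 for Col8a1, 2.59 ± 1.34 for Col1a2, 2.18 ± 0.80 for Col6a3 (adjusted p = 0.816) and 2.01 ± 0.64 for Col5a1 (adjusted p = 0.736). SEs of this size leave differences of several-fold undetected, so the test does not show that CiPSC and ESC had equal levels. At least 2-fold above the ESC of their set in the mean of the CiPSC were 1 of 24 collagens in set 1 (7.57% of all genes), 3 of 25 in set 2 (4.49%), 11 of 30 in set 3 (5.62%) and 2 of 44 in set 5 (6.73%). The members' share was above that of all genes in sets 2 and 3, most so in set 3, and the difference between sets was not tested.

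In set 3 the lines from wild-type MEF, CiPS WT1 and CiPS WT2, read above ESC3 for many of the collagens that were abundant in WT MEF. Of the 14 collagens that read at least 8-fold higher in WT MEF than in ESC3, the mean of the 2 lines was between 1.79% and 20% of WT MEF, with a median of 11%. ESC3 itself stood at 0.355% to 11.1%, which the choice of these 14 limits. Over ESC3, Col12a1 was 46.2-fold higher, Col6a3 26.1-fold, Col1a2 18.4-fold, Col8a1 12.2-fold and Col6a1 7.02-fold. Col5a1 was 5.36-fold, Col6a2 3.35-fold and Col4a1 2.27-fold higher. The excess did not extend to all fibroblast collagens: Col14a1 was 1.27-fold, Col8a2 1.19-fold and Col11a1 1.13-fold of ESC3, although WT MEF read 2066, 2768 and 815 for them. The 2 lines read close to each other, for example 1006 and 1109 for Col12a1 and 1052 and 883 for Col8a1. Set 5 showed no such excess: Col1a2 read 206 in CiPSCs against 619.8 in ESC5, and Col8a1 169 against 379.7.

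**Figure D3:**
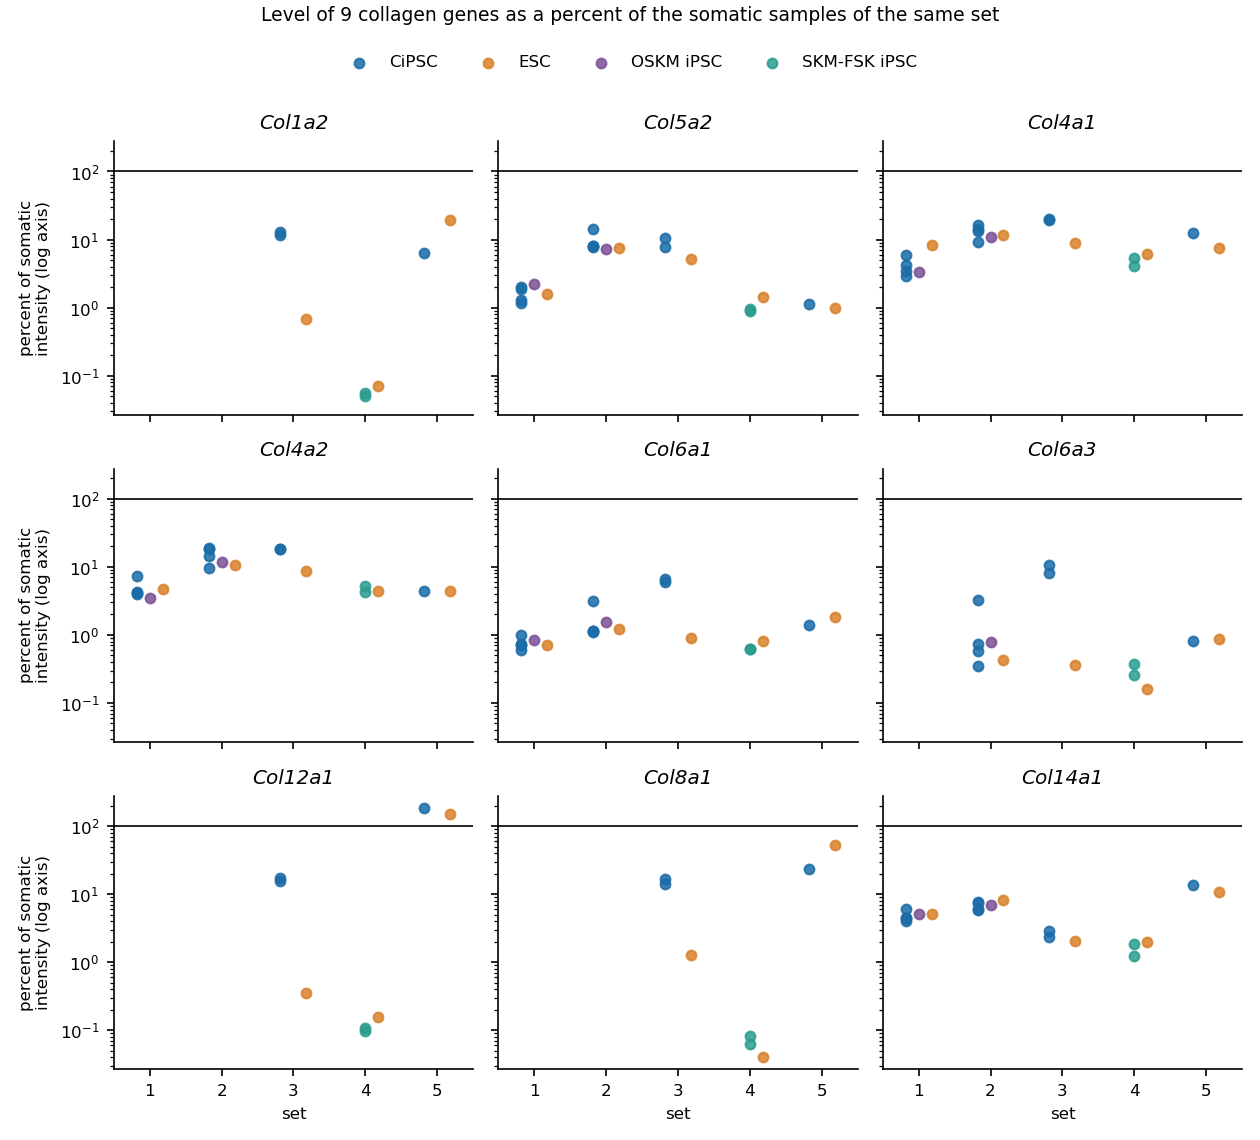
Percent of the somatic level of the same set (vertical log axis, mean of the set's somatic samples as 100%) for 9 collagens, with 1 point per CiPSC, ESC, OSKM iPSC and SKM-FSK iPSC sample and the sets on the horizontal axis. In set 3 the points of CiPS WT1 and CiPS WT2 lie far above that of ESC3 for Col12a1, Col6a3, Col1a2 and Col8a1 and close to it for Col14a1.

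Markers of other cell types moved in the same lines. The summed intensity of 12 measured fibroblast markers was 28.0% and 32.7% of WT MEF in CiPS WT1 and CiPS WT2 against 11% in ESC3, and that of 3 smooth muscle markers was 76.4% and 65.6% against 14.0%. Single bright genes dominated both sums. In WT MEF, CiPS WT1, CiPS WT2 and ESC3, Vim read 55851, 29878, 34643 and 17451.5, and Acta2 read 59785, 45430, 38679 and 8623. The other smooth muscle markers went apart in the same order: Tagln read 1817, 532, 501 and 47.8, and Myh11 365, 1390, 1480.5 and 34.1. The sum of the pluripotency markers was 28198 and 31896 in the lines, 33374 in ESC3 and 239 in WT MEF. Feeder MEFs, unreprogrammed or differentiated cells and the lines' own expression cannot be told apart in this design, and their part in the collagen signal was not tested. When the CiPSC of set 3 were set against the other CiPSC, each relative to its set's ESC and somatic samples, limma called no collagen of 30 (0% of all genes), and 3 had an unadjusted p under 0.05. Col6a3 differed by 3.38 ± 1.18, Col6a1 by 2.35 ± 0.79 and Col1a2 by 3.36 ± 2.27.

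In set 2 the 4 lines also differed. MAF CiPS3 had the highest value of the 4 lines for 13 of 25 collagens, against 5 for MNF CiPS1, 4 for ADSC CiPS2 and 3 for CiPS45. No such count over all genes stands beside these, so they do not show a trait particular to collagens. In MAF CiPS3, 6 of 25 collagens were at least 2-fold above ESC2 (8.74% of all genes), namely Col6a3, Col2a1, Col9a2, Col18a1, Col6a1 and Col26a1. There were 3 in MNF CiPS1 (14.6%), 3 in CiPS45 (6.58%) and 0 in ADSC CiPS2 (5.13%). The fibroblast marker sum was 8.56% of the somatic level in MAF CiPS3, 6.62% in CiPS45, 3.64% in ADSC CiPS2, 2.67% in MNF CiPS1 and 2.60% in ESC2. Macrophage markers stood at 112% in MAF CiPS3 against 17.2% in ESC2 (2 markers measured), smooth muscle at 7.05% against 1.09% (1 measured) and extraembryonic endoderm at 28.7% against 14.3%. The 2 macrophage markers went apart: Cd68 read 2919 in MAF CiPS3 and 379 in ESC2, but C1qc read 64.4 and 80.0. Of the endoderm sum of 5592 in MAF CiPS3, Lamb1 made up 3271.5, and it read 1021 in ESC2. Gata6 was lower in MAF CiPS3 than in ESC2 (587 against 753.5), and Gata4, Sox17, Lama1 and Plat were higher. The part of these cell types in the collagen values was not tested. No line of this set was tested against another.

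The time course of set 5 followed MEF3, treated cells at days 12, 20 and 32, and a CiPSC line, with 1 sample each, so differences have no replicate check and no p-value. Summed collagen intensity was 100.01% of MEF3 on day 12, 113% on day 20 and 108% on day 32, and 12.8% in CiPSCs and 12.8% in ESC5. Single collagens differed more, and within the treatment most 2-fold differences lay between MEF3 and day 12, as they did over all genes. On day 12, 16 of 44 were at least 2-fold lower than in MEF3 (25.9% of all genes) and 10 were higher (20.5%), the latter a share near that of all genes. From day 12 to day 20, 1 was lower (0.813%) and 2 were higher (2.52%). From day 20 to day 32, 7 were lower (3.88%) and 6 were higher (5.71%). From day 32 to CiPSCs, 23 were lower (15.9%) and 7 were higher (17.1%).

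**Figure D4:**
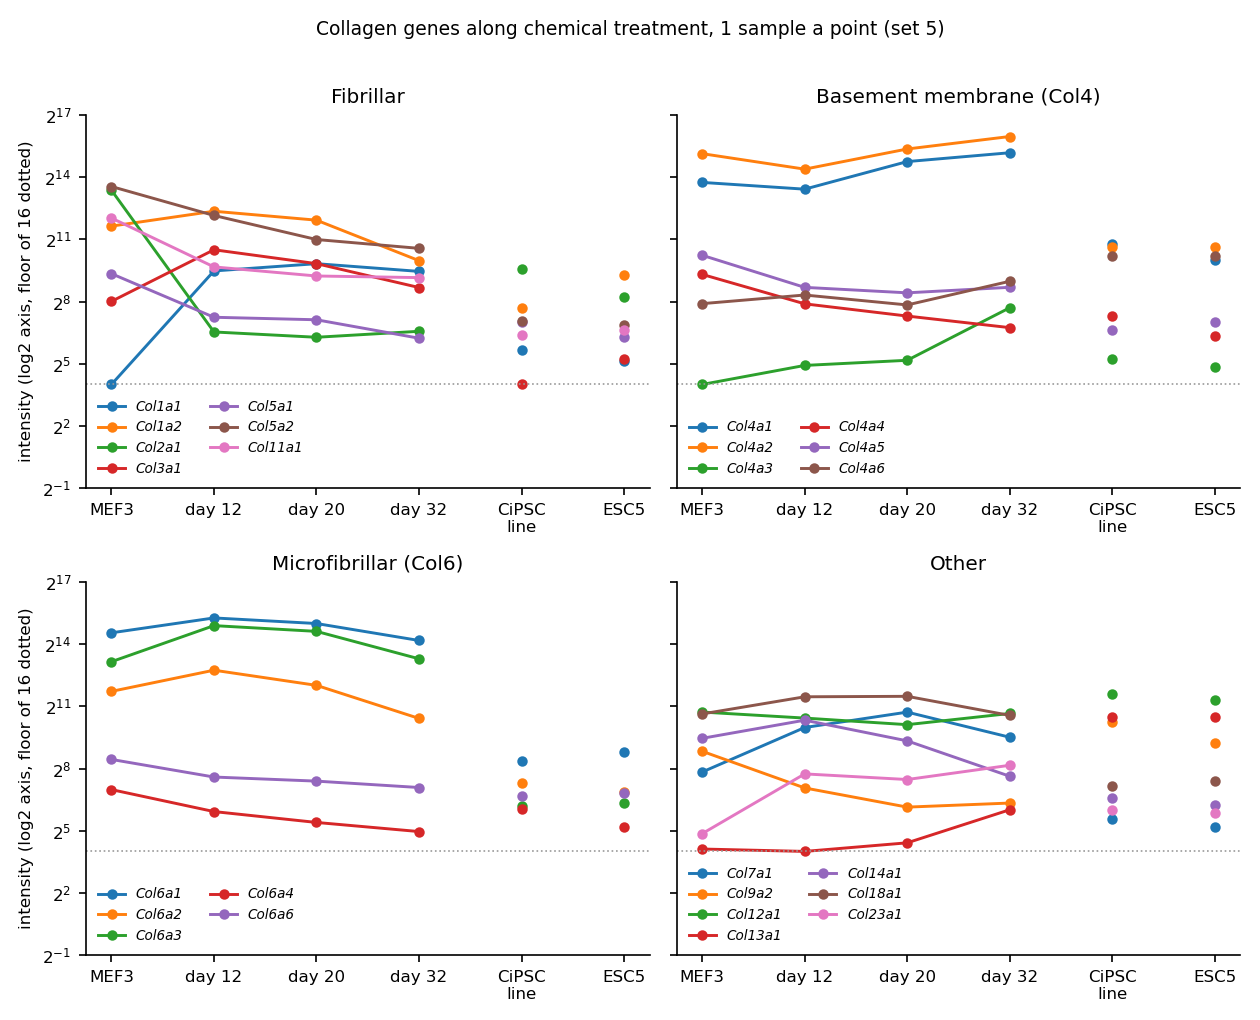
Intensity (vertical log2 axis, values under 16 drawn at the dotted floor of 16) of selected collagens by class in set 5, from MEF3 over days 12, 20 and 32 to the CiPSC line and ESC5 (horizontal axis), 1 sample per point. Col4a1 and Col4a2 are highest on day 32, Col6a1 to Col6a3 peak on day 12, and all 5 are low in CiPSCs and ESC5.

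The main collagen IV and collagen VI chains peaked at different times. Col4a1 read 13794, 10999.8, 27680.2 and 37203 in MEF3 and on days 12, 20 and 32, and 1732 in CiPSCs. Col4a2 read 36085, 21493, 42179 and 64051 and then 1581. Both were highest on day 32, where Col4a2 was close to the highest value of any probe in the set (65497). Col4a3 read 35.9 on day 20, 208 on day 32 and 37.1 in CiPSCs. Col6a1 read 23989.5, 39466, 32735 and 18562 over the same 4 samples, Col6a2 3381, 6869, 4138 and 1369, and Col6a3 9127, 30512, 25170.5 and 10054. The 3 classical collagen VI chains were thus highest on day 12 and below that level on day 32. From day 20 to day 32 the median difference was 0.51 over the 6 collagen IV chains and -0.63 over the 6 collagen VI chains. In CiPSCs the 3 collagen VI chains read 334, 159 and 73.3.

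Fibrillar collagens split by chain on day 12. Their median difference from MEF3 was -1.40, with 7 of 11 at least 2-fold lower and 3 higher. Col24a1 is among the 7 by the probe used, but its other probe read higher on day 12 than in MEF3. Col2a1 was lowest relative to MEF3, at 10625 in MEF3 against 92.7, 77.6 and 94.8 on days 12, 20 and 32. Col11a1 read 4190.3 and then 816, 603 and 571, and Col5a2 read 12024 and then 4565, 2041 and 1519. The higher ones were Col1a1, Col3a1 and Col27a1, of which Col1a1 and Col27a1 read under the floor of 16 in MEF3, and the Col1a1 probe did not separate fibroblasts from pluripotent cells. Col3a1, the genomic neighbour of Col5a2, read 258 in MEF3, 1449, 911 and 409.8 on the 3 days and 5.58 in CiPSCs. Col1a1 read 9.92, 714, 909.7 and 703 and 51.0 in the same order. Col1a2 read 3196 in MEF3, 5255 and 3900.4 on days 12 and 20 and 1007 on day 32, the lowest of the 3 days, before 206 in CiPSCs. Col2a1 was high again in CiPSCs, at 762.

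Of the other collagens, Col23a1, a transmembrane collagen, read 29.0 in MEF3, 214, 177 and 285 on days 12, 20 and 32, and 64.7 in CiPSCs. Col19a1 read 24.2, 138, 170.2 and 160.2 and 570.4, and Col7a1 228, 1009, 1690.1 and 729 and 48.1. Col23a1 and Col7a1 were high on the treatment days only, while Col19a1 was highest in CiPSCs. Col8a1 read 722 in MEF3 and 164, 506 and 192 on the 3 days, and Col14a1 703 and 1290.2, 646 and 198. Col13a1, a transmembrane collagen of cell junctions, stayed low through day 20 (17.3, 14.1 and 21.3), read 64.5 on day 32 and 1412 in CiPSCs, near the 1449 of ESC5. In set 4 Col13a1 read 43.7 in MEF2, 150.3 and 163 in the SKM-FSK lines and 104 in ESC4. Col9a2, which was called higher in all 4 pluripotent groups though narrowly in SKM-FSK iPSC, was lower during treatment than at either end, at 456 in MEF3, 134, 70.4 and 80.7 on the 3 days and 1224 in CiPSCs.

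Marker sums of several cell types are given beside these values, and some of them rested on few genes. The fibroblast marker sum was 232%, 203% and 168% of MEF3 on days 12, 20 and 32 and 21.7% in CiPSCs, where Vim made up 23829 of 26430. Extraembryonic endoderm markers, whose cells secrete collagen IV, summed to 229%, 151% and 262%, but Pdgfra and Plat made up most of the sum on day 12. Pdgfra, which is also on the fibroblast list, read 15179.5 on day 12 and 0.10 on day 20, and Plat read 16696 on day 12, of a sum of 35617. The endoderm regulators Gata4 and Gata6 were both highest on day 32: in MEF3 and on days 12, 20 and 32 Gata4 read 2264, 609, 2769 and 7183. Gata6 read 1645, 2265, 5186 and 12003 in the same order. Lama1, a laminin chain of the same membrane as collagen IV, read 89.8, 55.3, 656 and 2571, and Foxa2 read 83.4, 57.3, 317 and 1567. Lama1 and Foxa2 were highest on day 32 too, as were Col4a1 and Col4a2. Ttr and Dab2 of the same list were also highest then, at 2407 and 152, but not every member followed. Lamb1 read 1546 in MEF3 and 0.1 on each of days 12, 20 and 32. Sox17 read 241, 309, 353 and 222 in MEF3 and on the 3 days. Sox7 read 9.92, 300, 336 and 337, and Afp was under the floor in each of these samples. Endothelial markers, another collagen IV source, summed to 58.1%, 52.4% and 137% of MEF3 on the 3 days, and macrophage markers to 10.1%, 9.87% and 32.2%. Single genes made up most of both sums on day 32, Cdh5 with 1307 of 1698 and Cd68 with 2011 of 2179. From day 20 to day 32 Cdh5 went from 235 to 1307. The other endothelial markers did not follow: Pecam1 read 53.7 and 65.2, Kdr 252 and 242 and Tie1 105 and 83.2, and Tek was under the floor. The pluripotency marker sum was 645, 684 and 2766 on the 3 days against 97536 in CiPSCs. Smooth muscle markers summed to 71980 in MEF3 and to 638, 700.3 and 7522 on the 3 days. The part of each cell type in the collagen values was not tested.

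The enzymes that modify, fold and cross-link collagen were taken from a list of 31 genes. In CiPSC against somatic samples 12 of 26 tested fell (13.3% of all genes) and 1 rose (14.9%), with a median of -1.01. The lysyl oxidase Loxl1, which cross-links matrix proteins, fell by 5.47 ± 0.36 (adjusted p = 9.48e-11). The procollagen C-proteinase Bmp1, the oxidase Loxl2 and the prolyl hydroxylase P3h3 fell as well, with -4.51 ± 0.43 (adjusted p = 2.21e-08), -3.55 ± 0.40 (adjusted p = 2.2e-07) and -3.42 ± 0.25 (adjusted p = 5.8e-10). Pcolce2, an enhancer of procollagen processing, rose by 1.74 ± 0.60 (adjusted p = 0.0254). Loxl1 read 31255 in MEF1, 22228 in WT MEF and 1833 and 2214 in its lines. Not called were Lox (-2.88 ± 1.33, adjusted p = 0.116) and, for want of a 2-fold difference, P4hb (-0.91 ± 0.15, adjusted p = 3.65e-05), a disulfide isomerase with clients beyond collagen. In ESC, 13 of 26 fell and 1 rose (Pcolce2, by 2.53 ± 0.71, adjusted p = 0.00732), in OSKM iPSC 10 of 22 fell, and in SKM-FSK iPSC 13 of 26 fell. Of 6 collagen receptors tested, 5 fell in CiPSC, among them the integrin chain Itga11 (-5.5 ± 0.81, adjusted p = 8.93e-06), the receptor kinase Ddr2 (-5.15 ± 0.38, adjusted p = 5.03e-10) and the collagen uptake receptor Mrc2 (-4.52 ± 0.47, adjusted p = 7.49e-08).

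Along the time course these genes did not move as 1 group. Of 29 biosynthesis genes with values, 6 were at least 2-fold lower and 6 higher on day 12 than in MEF3, both near or under the shares of all genes (25.9% and 20.5%). On day 32, 4 were lower and 5 higher than on day 20 (3.88% and 5.71%), and from day 32 to CiPSCs 13 were lower and 3 higher (15.9% and 17.1%). Loxl1 read 56328 in MEF3 and 27425, 19303 and 10625 on days 12, 20 and 32, lower at each sampled day. P4ha2, a prolyl hydroxylase needed for a stable helix, read 533 in MEF3, 254, 710.5 and 2488 on the 3 days and 87.7 in CiPSCs, with its peak on day 32. Bmp1 read 1052 in MEF3 and 4052, 3748 and 2428 on the 3 days, above MEF3 throughout. Serpinh1, the collagen chaperone Hsp47, stayed within a narrow range, at 17274 in MEF3 and 12601, 11708 and 15020.5 on the 3 days, and read 1660.3 in CiPSCs.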

How the data were processed

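Per the labels, Cy5-labelled total RNA of 30 samples was run on 1-colour Phalanx arrays, and normalization by the authors was separate for each of 5 sets. The deposited values are linear intensities, 1 per probe and sample. Details of scanner software, background correction and array build were not given in the sources used here. The files hold no detection calls, so the precision rests on the number of samples alone.

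Values under 16 were set to 16, because the low values of set 5 lie far under those of the other sets, and log2 was taken. Of 26423 probes, 21876 had 1 gene symbol, 4547 had none and 0 had several; 21825 were matched to RefSeq symbols. A gene was read from its probe with values in most samples, ties going to the brighter probe; 5 of the 44 collagens had several probes.

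Group differences were fitted with limma 3.58.1 (R 4.3.3) on log2 intensities, with terms for group and set, over all samples with a value. A gene needed 2 sets that hold both groups (1 for SKM-FSK iPSC) and 3 residual degrees of freedom. Benjamini-Hochberg adjustment ran over all genes tested, and a call needed an adjusted p under 0.05 and a 2-fold difference. The script was tested on simulated data. Days 12, 20 and 32 have 1 sample each and no test.

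The collagens, the gene lists, the tests and the alternatives were chosen with earlier results of these data known. All collagens could be named; values per sample were given for the main fibrillar, collagen IV and collagen VI chains, Col18a1 and the largest differences of each class, and of each other list the called genes with the largest differences. Acan, Comp, Matn1 and Sox9 were named after the values of Col2a1 were seen. Alternatives were no floor, an offset of 16, quantile normalization within sets, the mean of a gene's probes, the lowest 25% of genes left out, no set term, no fold limit, single samples or sets left out, and a replicate block on the numbers in the sample titles. Samples that share such a number had a consensus correlation of 0.128 over 10732 genes.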

Additional observations from a re-analysis of the deposited data

Results flagged for a closer look

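Of 51 checks for a sample far from its group among collagens, 5 found one, where chance gives about 1 in 20. The sets were normalized separately, and these checks span sets. Col7a1 read 2571 in MNF, against 111 to 304 in the other somatic samples (n = 7), and Col17a1, a hemidesmosome collagen of epidermal cells, read 329 in MNF against 60.5 to 110.0. Both are the neonatal fibroblast sample. In ESC5, Col4a6 read 1186 against 32.5 to 86.5 in the other ESC samples (n = 5), Col17a1 read 249 against 66.9 to 86.1, and Col18a1 read 168 against 3520 to 9064. All 3 are the ESC sample of set 5, whose low values differ most from those of the other sets.

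For 8 collagens the CiPSC of some sets all moved one way against the somatic samples of their set, and those of other sets all moved the opposite way. The difference between sets was not tested. Col2a1 differed by a mean of 3.55 (3.03 to 4.24) in set 2 and 1.33 in set 3, but by -3.33 in set 1 and -3.80 in set 5. The sets with a negative difference are those whose MEFs read high for Col2a1. Col4a6 differed by 2.32 in set 5, by -2.55 in set 1, by -0.80 in set 2 and by -1.23 in set 3, and its 2 probes disagree in set 5. Col20a1 differed by 1.29 in set 1 and 0.93 in set 3, and by -0.68 in set 2 and -1.16 in set 5. Col26a1 differed by 1.44 in set 2, and by -2.46 in set 3 and -3.16 in set 5. Col12a1 differed by 0.86 in set 5 and by -2.61 in set 3, and Col18a1 by 0.27 in set 3 and by -3.46 in set 5. Differences under 2-fold in each set were those of Col6a4, 0.36 in set 3, -0.10 in set 2 and -0.95 in set 5, and of Col17a1, 0.31 in set 1, -0.25 in set 3 and -0.52 in set 5. Set 5 has 1 CiPSC sample, and every set but set 2 has 1 somatic sample.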

How the results depend on the processing

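Of 1034 values recomputed for 56 results, 1026 were classed as unchanged. For single collagens this meant the same direction and the same side of the threshold. For counts it meant only a count of similar size, so the shifts in counts given below are mostly among the 1026. Col18a1 in CiPSC, at -0.28 and not called, turned to 0.20 without set 5 and to 0.15 without MEF3, again not called, and ranged from -0.63 to 0.15 over samples left out. For the collagens followed singly in CiPSC and ESC against somatic samples, no called difference changed sign. The signs of the other called collagens were not followed. The count of collagens that fell in CiPSC was 14 to 18 when single samples were left out and 14 to 19 under the other alternatives. The lowest counts came without set 3 (14 of 26 tested) and without set 5 (14 of 25), which leave fewer collagens to test. For SKM-FSK iPSC the count of 17 ranged from 9 to 18 over samples left out, with 9 without MEF2 and 11 without SKM-FSK1 or SKM-FSK2, which leave fewer samples. Where 1 sample of a group was left, it was assumed to vary like the other groups, and without MEF2 the SKM-FSK lines were tied to the somatic samples through ESC. Under quantile normalization 2 collagens in place of 1 were at least 2-fold lower on day 20 than on day 12, and with an offset of 16, 1 in place of 2 was higher in CiPSCs than in ESC5; the cause was not tested. Col1a2 in CiPSC ranged from -4.47 to -3.15 over samples left out (adjusted p 0.035 to 0.0518). With the replicate block 18 collagens fell in CiPSC, 20 in ESC, 11 in OSKM iPSC and 18 in SKM-FSK iPSC. Sample titles share numbers, but nothing says that these pair the samples. Calls of single collagens beyond these results were narrower: in CiPSC Col16a1 was lost 16 times, Col28a1 6 and Col5a3 4, and in ESC Col4a6 13 times, Col5a3 8 and Col12a1 4. CiPSC against ESC gave 0 collagens under every alternative run. Values near the floor of 16 limit the fold of collagens that are low in pluripotent cells.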
